A study of Mus musculus with 14 samples.

Results

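The 4 control libraries of this experiment were made from tumours of mice given PBS, a buffered saline, and they are 4 of the 14 RNA sequencing libraries of the series. They were chosen by their label alone, treatment PBS. Each mouse had received 1000000 cells of the line 4T1 under the skin of the mammary area. PBS injections of 100 µL into the abdomen began on day 9, at a tumour volume near 100 mm3, and were repeated every 6 days for 3 cycles. Tumours were taken 3 days after the last cycle. The other 10 libraries come from mice given cyclophosphamide and were not used here. The sources used here give no strain, sex or age of the mice. Nothing in the labels ties a library to 1 mouse of its own, so every spread below is one between libraries and may be technical in part. No comparison between groups was made.

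4T1 is a mammary carcinoma line from a BALB/c mouse that is widely used as a transplantable model of triple-negative breast cancer, the subtype that lacks oestrogen receptor, progesterone receptor and amplified HER2. The tumours are known to grow fast, to spread to lung and bone, and to drive an expansion of neutrophils in their host by secreting the growth factor G-CSF. A tumour sample is a mixture. RNA of the carcinoma cells is read together with RNA of the host's macrophages, neutrophils, lymphocytes, fibroblasts and vessels, and in such bulk data fewer cells of a type and less RNA per cell cannot be told apart. The labels name the cell type as a TNBC (triple-negative breast cancer) cell, while genes of all these host cells were also read.

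The libraries held 15860536, 15396631, 15196980 and 17095798 counts in PBS 1 to PBS 4. Of 54532 listed genes, 25336 had a count in at least 1 library, and the other 29196 had none. Levels are given as FPKM, a count divided by the listed length of the gene and by 1 constant per library, so that genes can be compared with each other. In all, 12090 genes, 10768 of them protein-coding, had a mean of at least 1 FPKM, and 11123 genes reached 1 FPKM in every library. Of the protein-coding genes, 4562 had a mean of 10 FPKM or more, 453 of 100 or more and 46 of 1000 or more. Values for a gene are listed below in the order PBS 1, PBS 2, PBS 3, PBS 4, and the ± is the SD over these libraries (n = 4).

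Properties of single libraries touch several results. PBS 1 held most of the reads of B cell genes. PBS 2 stood apart from the rest in the first principal component, with a score of 40.4 against -18.1 to -5.34 in the others, and its counts leaned towards short genes, as described at the end. PBS 3 was the highest for a small group of matrix and pericyte genes. No pair of libraries was alike within counting noise: over 10560 genes, chi-square per gene ran from 44.3 to 109 in the 6 pairs.

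Mitochondrially encoded genes were left out of the ranking by mean FPKM. Of these, mt-Co1 and mt-Cytb, given below, exceeded every gene of the ranking in every library. Among the other protein-coding genes, the most abundant messages were those of iron storage, translation, antigen presentation and osteopontin. The first gene was Fth1, the heavy chain of the iron store ferritin (ENSMUSG00000024661, chromosome 19, 9982703 to 9985092, mm10), at 5441, 5292, 8875 and 3850 FPKM. Its level was highest in PBS 3 and lowest in PBS 4. Rplp1, a protein of the ribosomal stalk, followed at 4885, 6401, 5891 and 3885 FPKM, and Eef1a1, the elongation factor that carries tRNAs to the ribosome (ENSMUSG00000037742, chromosome 9, 78478449 to 78489151), at 5571, 4850, 6001 and 4441 FPKM. Eef1a1 varied least of the first 6 genes in relation to its mean. Lgals1 encodes galectin 1, a sugar-binding protein of tumour and stroma (ENSMUSG00000068220, chromosome 15, 78926725 to 78930465), and had 4523, 8865, 3420 and 3166 FPKM, with PBS 2 far above the other 3. B2m, the light chain of MHC class I (ENSMUSG00000060802, chromosome 2, 122147686 to 122153083), stood at 3722, 5353, 4936 and 3848 FPKM. The sixth gene was Spp1, which encodes the secreted phosphoprotein osteopontin (ENSMUSG00000029304, chromosome 5, 104435118 to 104441050), at 3009, 2435, 6706 and 3503 FPKM. PBS 3 held 2.75 times the level of PBS 2.

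**Figure D1:**
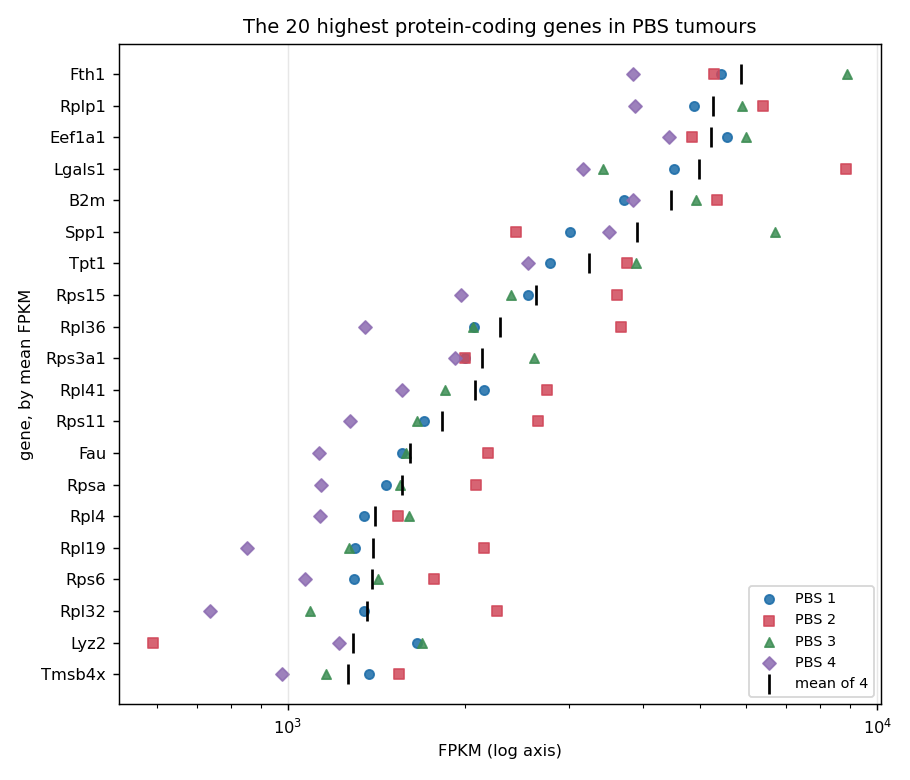
The 20 protein-coding genes with the highest mean FPKM, mitochondrially encoded genes left out. The x axis is FPKM on a log scale, each symbol is 1 library, and the black bar is the mean of 4. Lgals1 in PBS 2, at 8865, and Lyz2 in PBS 2, at 592, lie far from the other libraries.

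The rest of the first 20 were Tpt1, a translationally controlled tumour protein, 10 more genes of ribosomal proteins and Fau, which encodes a ribosomal protein fused to a ubiquitin-like part, and then Lyz2 and Tmsb4x. Lyz2, the lysozyme of macrophages and other myeloid cells, had 1659, 592, 1687 and 1221 FPKM and was lowest in PBS 2. Tmsb4x, thymosin beta 4, which binds actin monomers, had 1374, 1547, 1162 and 978 FPKM. Of the 20 genes, 14 were among the first 20 of every library, and 29 genes reached the first 20 of at least 1. The top 100 genes of a library took 25.3 ± 2.49% of its counts, and the top 10 took 8.58 ± 0.993%.

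Promoter sequences are shown for genes whose level describes this tissue: B2m, the intermediate filament gene Vim, the neutrophil alarmin genes S100a8 and S100a9, the keratin genes Krt8 and Krt18 of the carcinoma cells, and Twist1, a transcription factor of mesenchymal transition. Spp1 and Eef1a1 are shown as abundant genes without the motif. Each runs from 60 bases before to 20 bases after the start of the gene in RefSeq on GRCm38.p6, read 5′ to 3′ on the strand of the gene. Capitals mark the letters TATAA, the core of the TATA box.
B2m, chr2:122147627-122147706, plus strand: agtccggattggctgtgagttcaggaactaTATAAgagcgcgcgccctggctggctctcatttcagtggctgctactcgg
Vim, chr2:13574251-13574330, plus strand: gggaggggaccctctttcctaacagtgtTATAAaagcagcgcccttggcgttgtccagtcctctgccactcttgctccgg
S100a8, chr3:90669011-90669090, plus strand: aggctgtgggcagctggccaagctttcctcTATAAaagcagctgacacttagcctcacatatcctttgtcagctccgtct
S100a9, chr3:90695702-90695781, minus strand: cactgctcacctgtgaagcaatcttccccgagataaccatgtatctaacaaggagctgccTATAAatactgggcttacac
Krt8, chr15:102004323-102004402, minus strand: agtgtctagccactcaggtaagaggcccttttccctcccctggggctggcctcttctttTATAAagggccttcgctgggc
Krt18, chr15:102028156-102028235, plus strand: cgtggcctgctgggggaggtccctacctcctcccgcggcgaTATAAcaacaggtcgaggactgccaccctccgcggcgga
Twist1, chr12:33957611-33957690, plus strand: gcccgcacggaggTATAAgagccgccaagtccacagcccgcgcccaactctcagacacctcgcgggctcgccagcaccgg
Spp1, chr5:104435051-104435130, plus strand: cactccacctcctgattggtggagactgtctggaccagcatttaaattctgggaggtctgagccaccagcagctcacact
Eef1a1, chr9:78481705-78481784, minus strand: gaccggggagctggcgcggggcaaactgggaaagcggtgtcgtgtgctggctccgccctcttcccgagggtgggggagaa

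In B2m and S100a8 the motif began 30 bases before the annotated start, in Vim 32, in Krt18 19 and in Twist1 47. In Krt8 it began 1 base before the start, and in S100a9 at the start itself. The letters TATAA were searched on the strand of the gene, and on the opposite strand, where they read TTATA, in the window from 60 bases before to 10 after each start. Both readings may overlap, as in TTATAA. Of the 100 highest protein-coding genes outside the mitochondrial genome, 75 matched the RefSeq table by symbol and 14 of these, 18.7%, held TATAA. The share was 7.5% in the next 900 genes, 3.8% (325 of 8513) in protein-coding genes at 1 FPKM or more, and 7.5% (1243 of 16497) in all matched protein-coding genes. All 32851 windows of the table gave 6.0%. On the opposite strand the shares were 4.0% in the top 100 and 2.1% at 1 FPKM or more. Genes with the motif had a median SD between libraries of 0.30 on the log2 scale at 1 FPKM or more (n = 316), against 0.24 for those without it (n = 8164). In the top 100 the order was the other way round, with 0.31 (n = 14) against 0.37 (n = 61). Of the genes shown, B2m, Vim, S100a8, S100a9 and Krt18 were among the 14, and Krt8 and Twist1 were not. The 14 also included Eef2, H2-D1, Ppia, Psap and Hspa5. A match describes these letters and is no shown binding site.

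Genes of ribosomal proteins made up 12 of the 20 and 50 of the 100 highest protein-coding genes outside the mitochondrial genome. The 78 genes of the list took 9.95 ± 1.82% of counts, with a median of 670.5 FPKM, and 68 of them exceeded 100 FPKM. A group of 5 had a mean under 10 FPKM, although ribosomal proteins are as a rule needed in equal amounts: Rpl24 at 0.758, 0.991, 1.29 and 0.845 FPKM, Rpl29, Rpl21, Rps10 and Rpl26, which exceeded 10 FPKM in PBS 3 alone. Rps18 had 15.1, 20.8, 19.6 and 16.9 FPKM. Most of these genes have near-identical processed copies in the mouse genome, and reads of a gene and of its copy may be split by the counting, so each value is uncertain. The 402 pseudogenes named after or described as ribosomal proteins took 0.795 ± 0.127% of counts. PBS 2 was the highest library for 69 of the 78 genes, where it was the highest for 30.1% of all 13251 genes past a filter on low counts. PBS 4 was the lowest for 65 of 78, against 24.3% of all genes. In 18 of them the highest and lowest library differed by more than 1 on the log2 CPM scale, a range that 17.2% of all genes exceeded. CPM is the count per 1000000 of a library size scaled by TMM.

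Protein-coding genes took 96.6, 95.9, 96.6 and 96.7% of counts, lowest in PBS 2. The 13037 genes of all pseudogene classes took 2.63 ± 0.373%, and PBS 2 had the most, at 3.16%. The processed pseudogene Gm15772 was read at 3480, 6569, 5210 and 3364 FPKM, within the range of the 6 genes above. The transcribed processed pseudogene Gm6472 had 1534, 2508, 2228 and 1552 FPKM. Both were highest in PBS 2, as most ribosomal protein genes were. Long intergenic noncoding RNAs took 0.305 ± 0.0452% and were led by Gm26917, with 9058, 4671, 8589 and 10832 counts, and by Neat1. Gm26917 lies on chromosome 17 at 39843013 to 39846341, next to the ribosomal RNA gene CT010467.1, which took 9956, 7070, 10843 and 10195 counts.

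The small RNAs without a poly(A) tail named here were at 0 or low. Rmrp and Rpph1, the RNA parts of nuclear ribonucleases, and the Y RNA gene Rny3 had 0 counts in every library, which allows up to 3 counts in each. Rn7sk, the RNA of a transcription-elongation complex, had 3.09, 8.02, 3.60 and 6.58 FPKM. Of the histone genes, which mostly lack such a tail, Hist1h1c stood at 55.8, 62.1, 111 and 50.6 FPKM. The paraspeckle RNA Neat1 had 10.98, 13.9, 15.2 and 21.5 FPKM and the nuclear RNA Malat1 11.6, 10.6, 14.2 and 24.6 FPKM, and both were highest in PBS 4. The snoRNA host genes differed from them. Snhg8 had 47.5, 97.8, 83.7 and 59.1 FPKM and Gas5 12.9, 29.8, 20.1 and 23.2 FPKM, both highest in PBS 2. H19, an imprinted RNA of the embryo, had 13.4, 15.9, 22.97 and 4.87 FPKM and was lowest in PBS 4. At the bottom of the list Kcnq1ot1, the antisense RNA of an imprinted region, had 0.00968, 0.0146, 0.0105 and 0.0485 FPKM.

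Genes of the mitochondrial genome took 4.72 ± 1.02% of counts, from 3.46% in PBS 1 to 5.87% in PBS 2. The cytochrome oxidase gene mt-Co1 had 9125, 16990, 13920 and 12010 FPKM, and mt-Cytb, of complex III, 6226, 14160, 10720 and 11920 FPKM. Both were lowest in PBS 1. Levels of the 13 protein genes of this genome spanned a wide range: mt-Atp8 had 2.95, 8.34, 3.43 and 3.47 FPKM and mt-Nd4l 24.3, 50.2, 36.8 and 38.7 FPKM. Nuclear copies of mitochondrial sequence on chromosome 1 were counted too, among them Gm10925 with 2479, 8644, 4277 and 3875 counts, and reads shared with such copies make these levels uncertain. PBS 2 was highest for 9 of the 12 genes past the filter, against 30.1% of all genes, and PBS 1 lowest for 7 of 12, against 20.8% of all genes.

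Carcinoma cells were read through simple keratins, with little of the remaining epithelial programme. Krt8 had 455, 595, 385 and 420.4 FPKM and its partner Krt18, with which it forms filaments, 455, 689.7, 443 and 459 FPKM. Both were highest in PBS 2. Lcn2, the iron-binding lipocalin of carcinoma cells and neutrophils, had 161, 145, 271 and 108 FPKM, highest in PBS 3. Cldn3, a claudin of tight junctions, had 14.5, 32.4, 24.1 and 16.8 FPKM. The epithelial adhesion gene Epcam had 1.36, 0.267, 0.858 and 0.267 FPKM, and Cdh1, which encodes E-cadherin, 2.44, 2.08, 4.19 and 1.18 FPKM. The basal keratin gene Krt14 stayed at 0.547, 0.658, 0.398 and 0.0310 FPKM and Krt5 at 0.274, 0.248, 0.0319 and 0 FPKM. Of the regulators of the epithelial state, Esrp1 had 6, 2, 3 and 0 counts, Grhl2 3, 7, 0 and 0 and Ovol1, the lowest gene of the list, 1 count in PBS 1. In all, 9 of the 16 members of the list had a mean of 1 FPKM or more. The median of all 16 stood at percentile 55.8 ± 3.92 of protein-coding genes.

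Mesenchymal genes were high beside them. Vim had 1104, 1376, 1222 and 1122 FPKM, among the 46 protein-coding genes over 1000, with a range of 0.33 on the log2 CPM scale between libraries. Fn1, fibronectin, had 276, 161, 514 and 299 FPKM and was highest in PBS 3. Sparc, a matrix glycoprotein, had 159, 128, 179.8 and 158 FPKM. Vim, Fn1 and Sparc are also made by fibroblasts and, for Vim and Fn1, by macrophages, so their source cannot be told apart here. Twist1 had 52.2, 69.8, 97.6 and 82.03 FPKM and Snai1, another repressor of Cdh1, 20.9, 17.5, 12.9 and 21.5 FPKM. Zeb2, a repressor that macrophages express as well, had 4.96, 4.68, 6.04 and 5.75 FPKM. Lower levels were read for Twist2, at 0.757, 1.80, 0.485 and 1.44 FPKM, Snai2, at 0.238, 0.168, 0.139 and 0.296 FPKM, and Zeb1, at 0.451, 0.358, 0.436 and 0.467 FPKM. Cdh2, which encodes N-cadherin, was the lowest of the 12 genes, at 0.104, 0.0675, 0.0955 and 0.0270 FPKM. Of these 12, 9 had a mean of 1 FPKM or more and 7 of 10 or more.

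Of the receptors that define the subtype, that for progesterone was near 0 and that for oestrogen was low. The oestrogen receptor gene Esr1 had 0.677, 0.583, 1.18 and 0.606 FPKM, from 154, 117, 231 and 152 counts, highest in PBS 3. The progesterone receptor gene Pgr had 0, 2, 0 and 0 counts. Erbb2, the mouse HER2 gene, stood at 6.79, 6.24, 6.56 and 6.84 FPKM and was one of the steadiest genes, with a range of 0.12. The prolactin receptor gene Prlr had 0.141, 0.00887, 0.00456 and 0 FPKM, nearly all of it in PBS 1. Among growth factor receptors Met, for hepatocyte growth factor, was the highest, at 15.7, 18.8, 25.8 and 17.5 FPKM, ahead of Igf1r at 5.71, 5.65, 8.71 and 7.96 FPKM and Fgfr1 at 2.10, 1.36, 2.33 and 1.77 FPKM. Egfr had 0.393, 0.589, 0.371 and 0.452 FPKM and Erbb3 0.330, 0.204, 0.268 and 0.280 FPKM. In 7 of the 10 receptor genes the filter was passed, and in none of those 7 did libraries differ by more than 1 on the log2 scale.

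Milk genes were mostly unread. Gata3, a factor of luminal fate that T cells also use, had 10.7, 15.3, 16.2 and 13.5 FPKM, and Foxa1, its usual partner, 0.343, 0.266, 0.505 and 0.376 FPKM. Of the milk genes, Csn3, kappa casein, had 4.98, 6.78, 2.72 and 7.26 FPKM, while Csn1s1, Wap and Mucl1 had no count in any library and Csn2 had 3 counts in PBS 1 alone.

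Factors that recruit and feed myeloid cells were well expressed. Csf3, which encodes G-CSF, had 62.1, 57.2, 42.01 and 66.5 FPKM, and Csf1, the macrophage growth factor, 43.5, 38.3, 35.9 and 43.8 FPKM. Csf2, which encodes GM-CSF, had 4, 3, 0 and 1 counts. Ccl2, an attractant of monocytes, was the highest of the list at 156, 126, 167 and 114 FPKM, followed by Csf3 and by Ccl7, a related chemokine, at 86.7, 37.5, 56.9 and 44.9 FPKM. The neutrophil attractants Cxcl5, Cxcl1 and Cxcl2 ran from 24.2 to 60.3, 20.4 to 35.01 and 17.5 to 38.3 FPKM. Il6 had 0.693, 0.729, 0.519 and 1.39 FPKM. This list's level, the mean log2 CPM of its 11 members past the filter, differed by 0.15 between the highest and lowest library, although 5 of those members ranged over more than 1, against 17.2% of all genes.

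Of the bone matrix genes Spp1 was the highest, and 2 others varied more between libraries. Mgp, matrix Gla protein, an inhibitor of calcification (ENSMUSG00000030218, chromosome 6, 136872435 to 136875823), had 245, 433, 1497 and 301 FPKM. PBS 3 alone exceeded 1000. Ibsp, bone sialoprotein (ENSMUSG00000029306, chromosome 5, 104299171 to 104311469), had 13.8, 9.70, 5.92 and 32.1 FPKM, highest in PBS 4 and lowest in PBS 3, the library in which Mgp was highest. Runx2, a factor of the bone lineage, had 3.30, 3.42, 4.49 and 4.75 FPKM. Alpl, the alkaline phosphatase of bone and other tissues, had 4.17, 4.84, 5.36 and 4.26 FPKM. The genes of mature bone-forming cells were at or near 0: Sp7 had no count in any library and Bglap, osteocalcin, had 3, 3, 0 and 0 counts.

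Matrix-cutting enzymes and their inhibitors were both abundant. Timp1, an inhibitor of metalloproteinases, had 162, 132, 112 and 131 FPKM and Timp2 107, 71.2, 138 and 112 FPKM. Of the enzymes, the collagenase gene Mmp13 had 67.5, 67.2, 77.1 and 63.5 FPKM and the stromelysin gene Mmp3 60.95, 109, 49.6 and 36.3 FPKM. Mmp13 was steady, with a range of 0.25, while Mmp3 was highest in PBS 2 and ranged over 1.59. Timp3 was the lowest of the 11 genes, at 0.738, 0.150, 0.335 and 0.341 FPKM.

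Of the 20 cell type lists, macrophages had the highest median. All 14 genes of the list had a mean over 1 FPKM and 11 over 10, and the median member stood at percentile 96.5 ± 0.470. Besides Lyz2, Apoe, the lipid carrier of foamy and tissue macrophages, had 692, 302, 677 and 389.7 FPKM. C1qa, a chain of complement C1q made by resident macrophages, had 474, 279, 438 and 367 FPKM, and C1qb 349, 312, 288 and 244 FPKM. Csf1r, the receptor for Csf1, had 29.2, 15.9, 27.8 and 27.5 FPKM. PBS 2 was the lowest library for 9 of the 14, against 30.9% of all genes, and Csf1r there was well below the other 3. Mrc1, the mannose receptor, had 38.1, 20.01, 67.6 and 28.1 FPKM and was highest in PBS 3. Cd163, a scavenger receptor of resident macrophages, chosen after its values were seen, had 5.35, 1.78, 17.4 and 3.33 FPKM, again highest in PBS 3. Adgre1, which encodes F4/80, was the lowest of the list at 9.56, 4.14, 7.87 and 5.28 FPKM.

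Mature neutrophils came next. S100a9 had 1145, 1850, 1029 and 879.7 FPKM and its partner S100a8, with which it forms calprotectin, 492, 826, 419.6 and 321 FPKM. Both were highest in PBS 2 and lowest in PBS 4, as short genes were by their median; S100a9 is listed with 522 bases and S100a8 with 694. Retnlg, a resistin-like protein of granulocytes, had 57.8, 107, 84.4 and 70.1 FPKM. The G-CSF receptor gene Csf3r (3609 bases) had 20.5, 20.6, 16.9 and 18.1 FPKM and the chemokine receptor gene Cxcr2 (3048 bases) 9.32, 9.33, 7.88 and 6.61 FPKM. Cxcr2 was lowest in PBS 4, Csf3r in PBS 3 and Retnlg in PBS 1. The gelatinase gene Mmp9 had 56.8, 31.5, 62.6 and 27.4 FPKM, highest in PBS 3. All 14 genes of the list had a mean over 1 FPKM, with a median at percentile 90.0 ± 1.30; Ly6g, the surface marker of mouse neutrophils, was the lowest at 1.91, 2.74, 1.86 and 1.33 FPKM. PBS 2 was the highest library for 9 of 14, against 30.1% of all genes. Whether gene length has a part in this was not tested.

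Precursors of neutrophils were weak. Ngp, a secondary granule protein, had 16.4, 22.2, 14.3 and 10.02 FPKM and Camp, the cathelicidin, 5.95, 13.2, 4.25 and 2.87 FPKM. The primary granule genes Mpo and Elane, which mark the earliest stages, had 0.281, 0.397, 0.0818 and 0.0795 FPKM and 0.672, 0.277, 0.142 and 0.332 FPKM. Of the 10 genes, 5 had a mean of 1 FPKM or more, and Fcnb, a ficolin of precursors, had 1 count in PBS 1 and 1 in PBS 3.

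Monocyte genes gave mixed levels. Plac8, a gene of blood monocytes and other white cells, had 39.97, 26.4, 14.2 and 14.01 FPKM, and Ccr2, the receptor for Ccl2, 8.64, 4.47, 5.05 and 12.3 FPKM. Plac8 was highest in PBS 1 and Ccr2 in PBS 4. Ly6c2, the surface marker of classical monocytes, had 1.51, 0.596, 0.307 and 0.358 FPKM; it may share reads with its near-copy Ly6c1. Dendritic cells had 4 of 10 genes at 1 FPKM or more. Fscn1, fascin, had 89.4, 84.2, 66.5 and 67.9 FPKM, but carcinoma cells make it too. Batf3, a factor of the cross-presenting subset, had 6.43, 9.33, 5.61 and 5.76 FPKM, and Ccr7, the receptor that guides mature cells to lymph nodes, 6.38, 3.82, 2.73 and 1.68 FPKM. Xcr1 and Clec9a, surface genes of that subset, stayed under 1 FPKM in every library. Siglech, of plasmacytoid cells, had 100, 19, 0 and 10 counts, most of them in PBS 1.

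**Figure D2:**
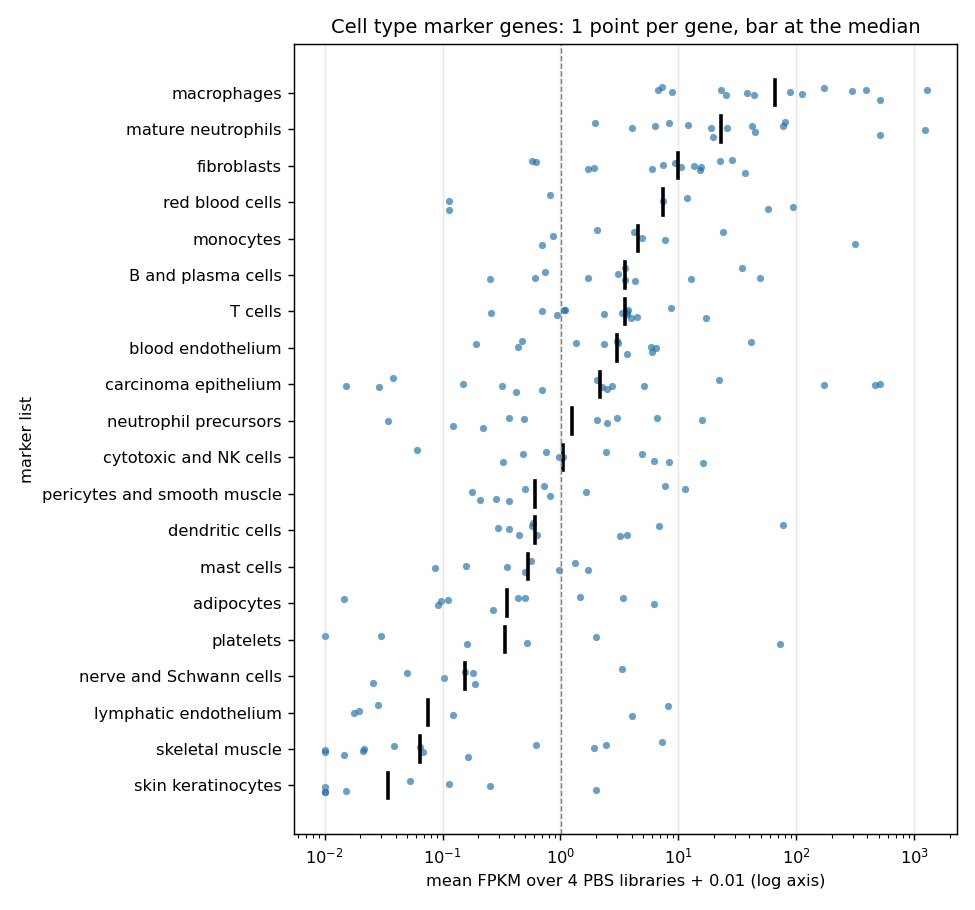
Marker genes of 20 cell types. The x axis is the mean FPKM over the 4 libraries plus 0.01, on a log scale, each point is 1 gene, the black bar is the median of the list, and the dashed line is at 1. Macrophage and neutrophil medians, at 65.9 and 22.7 FPKM, lie above all other lists, and skin, muscle and nerve medians lie below 0.2.

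T cells were read at a low level and unevenly. The T cell receptor constant gene Trbc2 had 29.3, 16.5, 10.6 and 11.9 FPKM, and Trbc1, a close copy of it, 16.1, 9.08, 5.98 and 3.34 FPKM. Lck, the kinase next to the receptor, had 7.92, 3.81, 2.10 and 4.01 FPKM. PBS 1 was the highest library for each of these. Summed over the 14 genes of the list, levels were 94.9, 49.99, 36.4 and 38.2 FPKM, and PBS 1 was the highest for 13 of 14, against 20.9% of all genes. Cd8a, of cytotoxic T cells, had 5.63, 3.22, 3.12 and 3.97 FPKM, and Cd4 2.36, 0.911, 0.625 and 0.418 FPKM; some dendritic cells also express Cd4. The PBS 1 level of Cd4 was 5.63 times the lowest, and that of Cd8a 1.81 times. The median of the list's protein-coding members stood at percentile 58.4 ± 5.07. It leaves out the receptor constant genes Trac, Trbc1 and Trbc2, which are of another class.

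Genes of cytotoxic granules were read in every library. Gzmb, granzyme B, had 15.7, 19.3, 13.6 and 15.7 FPKM and Prf1, perforin, 7.07, 5.90, 6.12 and 5.62 FPKM. Nkg7, of cytotoxic granules, had 10.4, 10.2, 6.59 and 6.31 FPKM, and Gzma, granzyme A, 3.05, 3.72, 1.53 and 1.30 FPKM. The highest library held 2.86 times the lowest for Gzma and 1.26 times for Prf1. Natural killer cell genes spanned a wide range of levels: Klrd1, which encodes CD94, had 5.25, 5.58, 4.75 and 4.16 FPKM, Ncr1 1.29, 0.884, 0.227 and 0.601 FPKM and Klrb1c 4, 2, 0 and 4 counts.

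B and plasma cell genes were highest in PBS 1. Igkc, the kappa light chain constant gene (ENSMUSG00000076609, chromosome 6, 70726435 to 70726966), had 181, 6.52, 4.08 and 4.30 FPKM, and Ighm, the constant part of IgM, 32.4, 7.58, 5.49 and 5.34 FPKM. Jchain, which joins IgM and IgA units, had 15.5, 0.757, 0.473 and 0.454 FPKM, and Iglc2, of the lambda chain, 11.8, 0.111, 0.114 and 0.267 FPKM. PBS 1 stood alone in each. The surface genes of B cells followed: Cd79a had 11.3, 2.05, 0.432 and 0.411 FPKM and Ms4a1, which encodes CD20, 2.30, 0.0330, 0.0226 and 0.0264 FPKM. Pax5, the factor that holds B cell identity, had 137, 0, 1 and 6 counts. Mzb1, a chaperone of plasma cells, had 95, 5, 1 and 1 counts. All 11 genes of the list had their highest value in PBS 1, against 20.9% of all genes, Xbp1 with the smallest gap, at 43.1, 26.6, 38.8 and 29.5 FPKM; Xbp1 serves secretory cells of every kind.

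The antibody gene segments gave the same picture over a wider set. The 268 immunoglobulin genes of the table had 4960, 347, 236 and 292 counts, from 95, 18, 19 and 17 genes with a count. The 226 genes of T cell receptors had 785, 375, 250 and 329 counts, from 37, 21, 27 and 35 genes. The step between PBS 1 and the others was thus larger for antibody genes than for T cell receptor genes in these counts. Just 4 of the 11 list members passed the filter on low counts, which asks for reads in all 4 libraries, so the level of this list, which ranged over 3.35 on the log2 scale, rests on those. Without PBS 1 the range was 0.41. Other features of PBS 1 were Ptprcap, a lymphocyte protein bound to CD45, at 16.5, 5.21, 1.59 and 2.23 FPKM, and Ccl5, a chemokine of T cells, at 27.6, 17.3, 11.7 and 9.01 FPKM; both were chosen after their values were seen. Whether lymphoid tissue was sampled with this tumour was not tested.

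**Figure D3:**
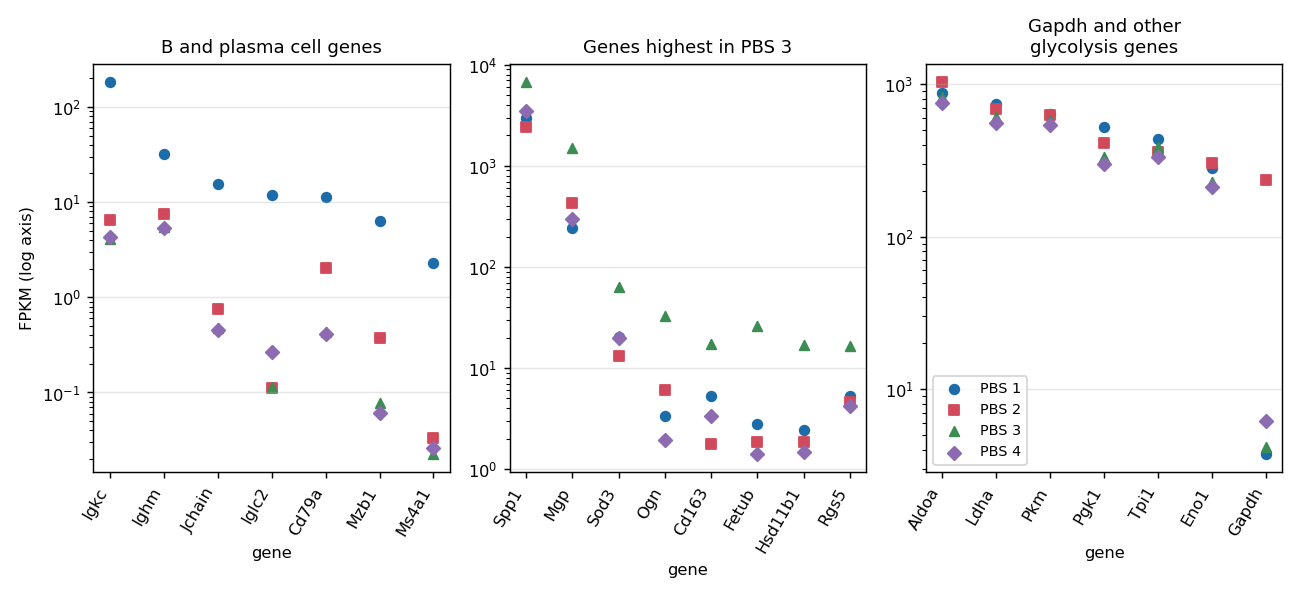
Genes that set 1 library apart. Each panel gives FPKM on a log axis of its own for named genes, with 1 symbol per library: B and plasma cell genes on the left, genes highest in PBS 3 in the middle, and Gapdh beside 6 other glycolysis genes on the right. Igkc is at 181 in PBS 1 and under 7 elsewhere, Mgp at 1497 in PBS 3, and Gapdh at 234 in PBS 2.

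Mast cell genes stayed low, with a highest value of 3.59 FPKM for the tryptase gene Tpsb2, in PBS 2. Of 8 genes, 7 had their highest value in PBS 2, against 30.1% of all genes, but only Kit, the receptor for stem cell factor, passed the filter, and it was highest in PBS 1, at 0.722, 0.275, 0.644 and 0.336 FPKM.

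Fibroblasts were read at intermediate levels. Col1a1, the main chain of type I collagen, had 33.3, 29.1, 21.9 and 61.4 FPKM, Col3a1 26.4, 32.9, 18.6 and 35.6 FPKM and Thy1, a surface marker that T cells share, 23.3, 17.4, 21.3 and 27.3 FPKM. Col1a1 in PBS 4 was 2.80 times its level in PBS 3. Pdgfra, a growth factor receptor of fibroblasts, had 8.83, 5.41, 18.01 and 10.2 FPKM, highest in PBS 3. Fbln1, a matrix glycoprotein, was the lowest of the 14 at 0.550, 0.467, 0.385 and 0.847 FPKM. In all, 12 of 14 had a mean of 1 FPKM or more, and the median of all 14 stood at percentile 78.7 ± 1.39. PBS 4 was the highest library for 6 of 14, against 23.1% of all genes.

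Pericyte genes were highest in PBS 3. Rgs5, a regulator of G protein signals in pericytes, had 5.23, 4.61, 16.5 and 4.202 FPKM. Acta2, smooth muscle actin, had 15.1, 11.99, 9.95 and 8.53 FPKM and did not follow it. PBS 3 was the highest for 6 of the 8 genes past the filter, against 26% of all genes. Blood endothelium pointed to PBS 1 instead. Cdh5, the cadherin of vessels, had 8.92, 3.35, 4.65 and 6.24 FPKM, Pecam1, which encodes CD31, 6.96, 1.496, 3.64 and 2.54 FPKM, and Cldn5, of endothelial tight junctions, 11.97, 2.31, 5.74 and 4.00 FPKM. PBS 1 was the highest and PBS 2 the lowest library for 10 of the 12 genes each, against 20.9% of all genes highest in PBS 1 and 30.9% lowest in PBS 2. Eng, endoglin, was the exception in level and in spread, at 39.4, 42.96, 44.96 and 38.4 FPKM; it is made by macrophages and fibroblasts as well. Vwf, von Willebrand factor, had 0.288, 0.136, 0.157 and 0.152 FPKM. Lyve1, of lymph vessels and of some macrophages, had 6.30, 0.862, 6.14 and 2.96 FPKM, while Prox1, the defining factor of lymph vessels, had 7, 2, 0 and 1 counts.

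Blood and neighbouring tissue left small traces. The beta globin gene Hbb-bs had 109, 121, 47.95 and 93.7 FPKM and Hba-a1 67.5, 76.6, 32.5 and 52.8 FPKM; both have near copies. All 4 globin genes were lowest in PBS 3, against 23.9% of all genes. Pf4, a chemokine of platelets and of some macrophages, had 119, 75.3, 70.01 and 28.8 FPKM, while Gp1bb, of the platelet surface, had no count. Of fat cell genes, Fabp4 had 10.1, 6.97, 6.44 and 1.53 FPKM and Cfd, adipsin, 6.39, 4.94, 2.05 and 0.118 FPKM. Lpl, lipoprotein lipase, had 1.06, 1.66, 1.73 and 1.31 FPKM and was lowest in PBS 1, so that the low level of the list in PBS 4 rests on Fabp4, the other of the 2 members past the filter. Fabp4 is also used by vessels and macrophages, and Lep, the defining hormone of fat cells, had 1 count in all. Of other members that did not pass the filter, Adipoq had 16, 15, 9 and 2 counts, Plin1 11, 8, 6 and 0 and Cidec 21, 17, 11 and 0. Each of these was lowest in PBS 4, on few counts. Of muscle genes, Tnni2, a troponin of fast fibres, had 3.85, 13.6, 4.07 and 7.63 FPKM, highest in PBS 2, and Acta1, skeletal actin, 0.117, 0.133, 0.0456 and 2.16 FPKM. Acta1 thus came almost wholly from PBS 4, while the muscle enzyme gene Ckm had 1 count there and 0 elsewhere. Of the 11 muscle genes with a count, 5 were highest in PBS 4 and 4 in PBS 2, against 23.1% and 30.1% of all genes. Only 3 passed the filter, and all 3 were highest in PBS 2. The skin genes Krt1, Lor and Flg2 were not detectable at this depth, with 0 counts in every library, while Krt10 had 1.79, 2.70, 1.85 and 1.62 FPKM. Sbsn had 22, 17, 5 and 13 counts, Krt15 1, 2, 0 and 2, Krtdap 0, 0, 4 and 0 and Dsg1a 2, 0, 0 and 0. Of nerve genes, Sox10 had 5, 2, 0 and 1 counts.

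Cell division genes were active in every library. All 17 members had a mean over 1 FPKM and 16 over 10. Pcna, the replication clamp, had 131, 178, 119 and 105 FPKM, Ccnb2, a mitotic cyclin, 54.04, 57.8, 43.8 and 51.3 FPKM, and Top2a, the topoisomerase of dividing cells, 45.7, 46.3, 43.9 and 53.1 FPKM. None of the 17 genes ranged over more than 1 on the log2 scale. PBS 3 was the lowest for 15 of 17, against 23.9% of all genes. Mki67 was the widest, at 18.8, 29.3, 25.5 and 33.7 FPKM, and Cenpf, a kinetochore protein, the lowest, at 5.35, 5.92, 5.06 and 7.35 FPKM.

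Glycolysis and hypoxia genes stood near the top of the scale. All 15 had a mean over 10 FPKM and 8 over 100, with a median at percentile 98.1 ± 0.250. Aldoa had 875, 1031, 824 and 753 FPKM, Ldha, lactate dehydrogenase A, 748, 692, 614 and 556 FPKM, and Pkm, pyruvate kinase, 637, 631, 584 and 543 FPKM. Slc2a1, the glucose transporter GLUT1, had 102, 133, 103 and 99.99 FPKM, highest in PBS 2. Car9, a carbonic anhydrase induced by hypoxia, had 46.8, 47.5, 62.4 and 48.8 FPKM, highest in PBS 3. Gapdh did not follow the other members. This enzyme of the same pathway (ENSMUSG00000057666, chromosome 6, 125161715 to 125166467) had 258, 14221, 244 and 465 counts and 3.75, 234, 4.13 and 6.12 FPKM, so that PBS 2 held 62.4 times the lowest library. It is a gene commonly used as a loading reference, and in PBS 1, PBS 3 and PBS 4 it was far below Aldoa, Tpi1 and Pgk1. Gapdh has many processed copies in the mouse genome; the 6 others that the table names or describes as such had 12, 10, 11 and 11 counts in all. Copies listed under model names were not counted in that sum, and no source used here says how reads shared with copies were treated, which leaves the level of Gapdh uncertain.

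Interferon-induced genes were present in every library. Bst2, tetherin, had 434, 477, 423 and 401 FPKM and Isg15, a ubiquitin-like modifier, 171, 302, 85.6 and 107 FPKM. Irf7, a factor that amplifies the response, had 49.4, 40.2, 23.4 and 25.6 FPKM and Mx1, an antiviral GTPase, was the lowest at 3.45, 2.59, 1.48 and 2.00 FPKM. All 14 genes had a mean over 1 FPKM. PBS 1 was the highest for 9, against 20.9% of all genes, PBS 2 for 4, a share near the 30.1% of all genes, and PBS 3 was the lowest for 9, against 23.9%.

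MHC class I and class II parted between libraries. The class I heavy chain gene H2-D1 had 892, 1093, 1160 and 938 FPKM and H2-K1 219, 332, 289 and 294 FPKM; these genes share sequence with each other and with other class I genes. The immunoproteasome gene Psmb8 had 145, 183, 127 and 126 FPKM, and Nlrc5, the activator of class I genes, was the lowest at 8.05, 8.26, 6.44 and 12.8 FPKM. The level of the 10 class I genes ranged over 0.23, against 1.34 for the 7 class II genes. Cd74, the invariant chain of class II, had 939, 331, 720.4 and 856 FPKM, H2-Eb1 306, 137, 223 and 312 FPKM and H2-Ab1 151, 59.8, 108 and 131 FPKM. Ciita, the activator of class II genes, had 2.57, 0.578, 0.962 and 1.91 FPKM. PBS 2 was the lowest library for all 7, against 30.9% of all genes. H2-Ea-ps, which is listed in a pseudogene class, lies in the same cluster on chromosome 17 at 34342933 to 34344643. It was read at 522, 237, 472 and 607 FPKM and was also lowest in PBS 2. Whether that class holds in these mice was not tested. These class II genes, except Ciita, are listed with lengths of 1184 to 1874 bases, a class in which PBS 2 exceeded the others by a median of 0.25 on the log2 scale, so their low values there ran against the length pattern. Genes of macrophages, which carry class II, were low in PBS 2 as well, and their part was not tested.

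Checkpoint genes included Cd274, which encodes PD-L1, at 18.7, 20.3, 21.9 and 18.4 FPKM with little spread. Nt5e, the enzyme CD73 that forms adenosine, had 23.5, 16.2, 43.7 and 31.9 FPKM, and Tigit, a receptor of T and natural killer cells, 25.8, 15.8, 18.9 and 15.5 FPKM. The mean of Tigit, 18.98 ± 4.82 FPKM, lay above that of Trbc2, 17.1 ± 8.51, which is the highest of the T cell list, a gap within the spread between libraries. Pdcd1, which encodes PD-1, had 5.67, 3.60, 3.48 and 3.75 FPKM, highest in PBS 1, and Foxp3, of regulatory T cells, was the lowest of the 11 at 0.407, 0.563, 0.263 and 0.164 FPKM.

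The lists of growth and tumour suppressor genes had the steadiest mean levels. Myc had 51.9, 85.3, 47.1 and 59.5 FPKM, Ccnd1, the cyclin of early G1, 119.8, 75.04, 84.2 and 109 FPKM, and Cdk4, its kinase, 100.8, 110.2, 97.2 and 98.1 FPKM. Akt1 had 95.98, 76.4, 81.3 and 80.3 FPKM, and Braf was the lowest of the 10 at 1.21, 0.952, 1.82 and 1.88 FPKM. Of the p53 list, Bax, which opens the mitochondrial membrane, had 59.9, 95.5, 59.9 and 54.9 FPKM, highest in PBS 2, Ccng1, a p53 target, 21.4, 17.4, 26.7 and 19.8 FPKM, and Cdkn1a, the p21 inhibitor, 17.5, 13.5, 10.4 and 10.2 FPKM. Trp53 itself had 9.76, 11.8, 9.00 and 9.15 FPKM and Cdkn2a, the lowest, 0.667, 0.697, 1.08 and 1.16 FPKM. The levels of these 2 lists ranged over 0.12 and 0.088, and in neither did a member range over more than 1. Their median members ranged over 0.56 and 0.55, near the 0.60 of all genes, so the steadiness is that of the mean.

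Among sex chromosome genes, Xist, the RNA that coats the inactive X chromosome, had 2.21, 3.09, 2.96 and 6.36 FPKM, highest in PBS 4. Of the 4 genes of the Y chromosome on the list, Kdm5d and Uty had no count, and Eif2s3y had 4, 0, 0 and 0 counts and Ddx3y 1, 0, 0 and 0.

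**Figure D4:**
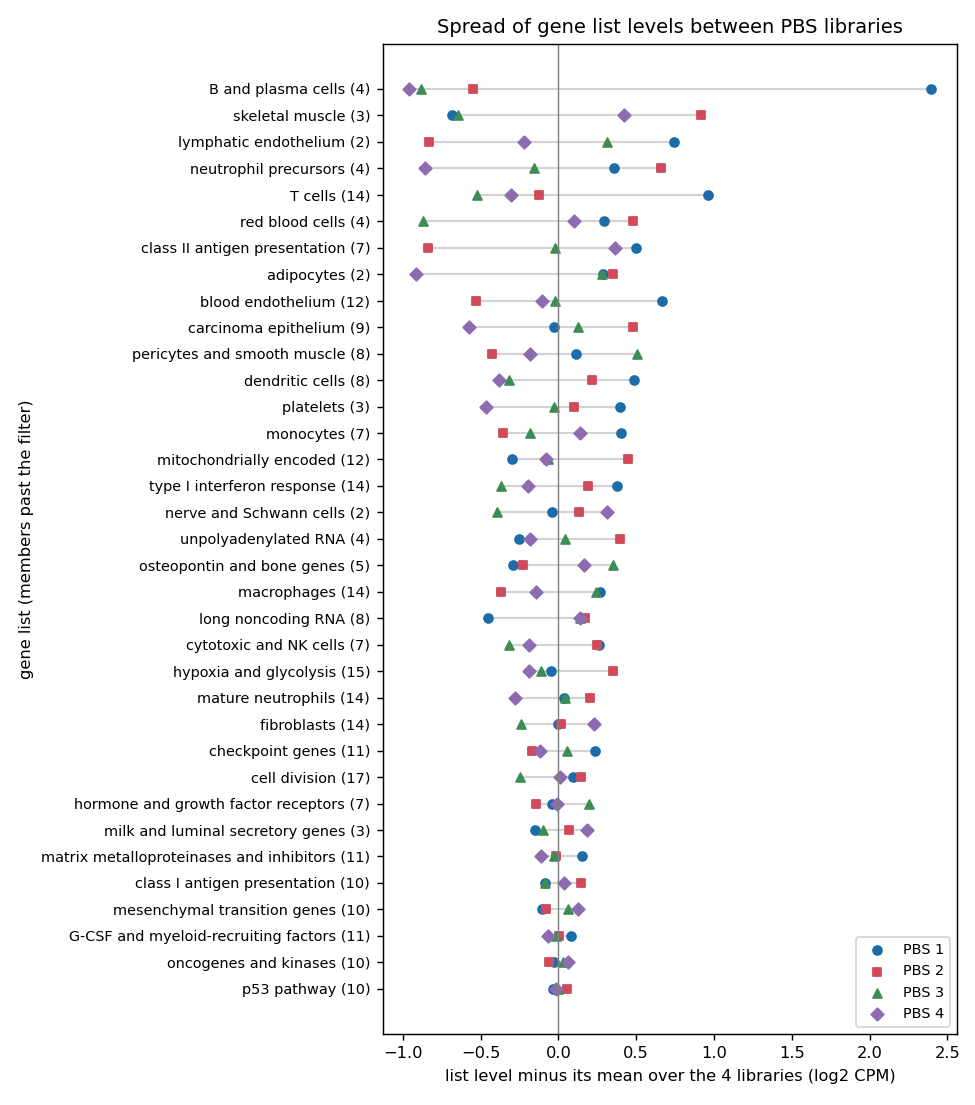
Spread of 35 gene lists between libraries. The x axis is each list's level per library, the mean log2 CPM of its members past the filter, minus the mean over the 4 libraries, and the number of such members is in parentheses. Lists with fewer than 2 such members are not drawn. B and plasma cells range over 3.35 and the p53 list over 0.088.

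Over all 13251 genes past the filter, the common biological coefficient of variation from edgeR was 0.224, and 62 genes had a coefficient above 0.5. Leaving out PBS 3 left 22 such genes, and leaving out PBS 1 left 34. The median gene ranged over 0.60 on the log2 CPM scale from its lowest to its highest library, and 2281 genes, 17.2%, ranged over more than 1. Of the 38 lists, 12 had a level that ranged over more than 1, and on the log2(FPKM + 1) scale 7 had. Pearson's r of log2 CPM between pairs of libraries ran from 0.967 to 0.978, across genes, which are no independent replicates. The 3 pairs with PBS 2 held the 3 lowest values. PBS 2 also had the largest median absolute difference from the mean of the other 3, at 0.29, where PBS 1 had 0.20, PBS 3 0.23 and PBS 4 0.23.

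The difference of PBS 2 and of PBS 4 from the rest moved with gene length. In PBS 2, genes of up to 500 listed bases were higher than in the other 3 by a median of 0.59 on the log2 CPM scale (290 genes), and genes over 8000 bases were lower, with a median of -0.21 (2126 genes). PBS 4 showed the opposite order, from -0.29 in the shortest and -0.34 in the next class to 0.18 in the longest. Across genes, Spearman's rho between length and this difference was -0.37 in PBS 2 and 0.39 in PBS 4, against -0.041 in PBS 1 and 0.11 in PBS 3. Since the difference of one library is taken from the mean of the others, these values are not independent of each other. The cause was not tested, and no RNA quality value was used here. Lgals1 (903 bases) and S100a8 followed the order of the short classes. Some ribosomal protein genes of greater listed length had that order too: Rps24 (6256 bases) had 302, 461, 376 and 243 FPKM, highest in PBS 2 and lowest in PBS 4, while the median of all genes over 4000 and up to 8000 bases was -0.088 in PBS 2 and 0.078 in PBS 4.

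**Figure D5:**
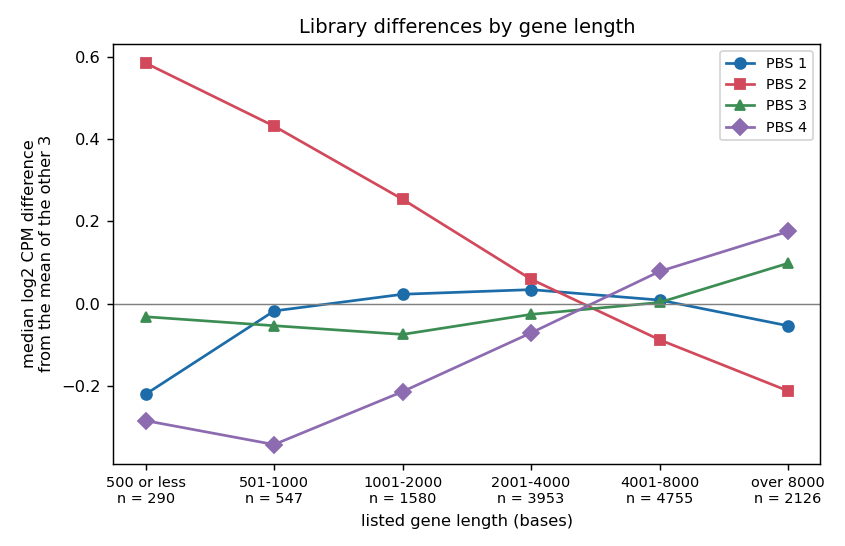
Difference of each library from the mean of the other 3, by listed gene length. The y axis is the median difference in log2 CPM over the genes of a length class, the x axis gives the class in bases and its number of genes, and each line is 1 library. PBS 2 falls from 0.59 to -0.21, and PBS 4 climbs from -0.34 to 0.18.

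The genes that varied most among protein-coding genes of at least 10 FPKM were led by Gapdh, Ogn and Sncg. This cut was applied to the average of the libraries, so high values in some libraries can carry a gene past it. Gapdh reached 10 FPKM in PBS 2 alone and Ogn in PBS 3 alone. Ogn, osteoglycin, a small proteoglycan of matrix (ENSMUSG00000021390, chromosome 13, 49608046 to 49624501), had 3.35, 6.12, 32.9 and 1.95 FPKM, and Sncg, gamma synuclein, 10.9, 24.8, 4.19 and 2.36 FPKM. Ogn was high in PBS 3 and Sncg in PBS 2. Ccl24, an eosinophil attractant made by macrophages, had 16.01, 2.78, 17.8 and 7.40 FPKM and was lowest in PBS 2, as was F13a1, a coagulation factor of macrophages, at 16.3, 5.02, 28.8 and 13.7 FPKM. Lgals7, a galectin of stratified epithelium, had 58.3, 242, 95.9 and 48.7 FPKM, highest in PBS 2. Sod3, the extracellular superoxide dismutase, had 20.4, 13.2, 63.6 and 19.97 FPKM, Wisp2, a matricellular protein, 38.6, 17.9, 86.1 and 20.7 FPKM, and Tnfrsf21, a death receptor, 16.98, 6.28, 43.6 and 17.1 FPKM. PBS 3 was the highest library for these and for Mgp and Aqp1, a water channel, at 49.4, 16.7, 76.7 and 29.7 FPKM. Ifi27l2a, induced by interferon, had 204, 167, 58.8 and 61.6 FPKM, and Gadd45g, a stress-induced gene, 26.4, 46.7, 10.4 and 16.1 FPKM. Of the 15 widest genes, 9 were highest in PBS 3, against 26% of all genes. PBS 2 was the highest for 4, a share near the 30.1% of all genes.

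PBS 3 led further genes whose average lay under that level, chosen after their values were seen. Fetub, fetuin B, a protease inhibitor known from liver, had 2.79, 1.84, 26.3 and 1.42 FPKM, and Hsd11b1, which regenerates active glucocorticoid, 2.46, 1.86, 16.9 and 1.49 FPKM. Both were several times higher in PBS 3 than in any other library. In PBS 4 the leading genes were Ibsp, Sesn3, a stress-induced sestrin, at 4.95, 1.64, 6.76 and 11.1 FPKM, and Sema7a, a membrane semaphorin, at 20.6, 6.91, 9.23 and 25.5 FPKM.

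The steadiest genes at this level were of other kinds. The formin gene Fmnl3, which shapes actin filaments, had 15.6, 15.7, 15.8 and 15.7 FPKM, and Rsl24d1, a factor of ribosome assembly, 28.1, 27.9, 28.1 and 27.7 FPKM. Their SD on the log2 CPM scale was 0.015 in both, against a median of 0.23 over the 4495 eligible genes. Cdk9, the kinase of transcription elongation, had 29.4, 29.7, 30.1 and 28.98 FPKM, Cand1, which exchanges parts of ubiquitin ligases, 12.4, 12.7, 12.8 and 12.5 FPKM, and Cers2, a ceramide synthase, 43.95, 45.2, 46.8 and 46.01 FPKM. Of these 5 genes, Cers2 had the widest range, 0.06.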

How the data were processed

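Bulk RNA of 4 tumours given PBS was read. The deposited count table holds whole-number counts per Ensembl gene, which the authors did not normalise. The deposited FPKM values follow from those counts: the authors divided each count by the listed length and by 1 constant per library (14.28 to 18.38, in units of 1000000, against library totals of 15.2 to 17.1 in the same unit), and no value departed from this. The build mm10 and the tool DESeq2, with no role given, are named per the submitters' processing notes. The sources used here give no aligner, counting tool, strand setting or treatment of shared reads, so overlapping and antisense genes cannot be told apart. Symbols, lengths, classes and coordinates are those of the deposited table, where 100 symbols belong to more than 1 identifier and the one with more counts was taken. Counting error is small at this depth, and a count of 0 allows up to 3 counts.

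Spread was measured with edgeR 4.0.16 and limma 3.58.1 under R 4.3.3: TMM factors, filterByExpr, which left 13251 genes, log2 CPM with a prior count of 2, and the dispersion of a fit with an intercept alone, which was tested on simulated data. Tables were made with Python 3.11.15 and pandas 2.3.3. The gene lists were 20 of cell type markers and 18 of processes, with 399 symbols between them; 2 symbols are absent from the table. Values of 3 list members are not reported here; they count in their lists. The members and lists were chosen with earlier results of these data known. Named genes are the 20 highest, the 3 highest and the lowest of each list, all receptors, the 15 widest and 10 steadiest genes of at least 10 FPKM, and the 2 leading genes of other classes with at least 0.05% of counts; the text prints fewer, and further list members and genes named as examples were chosen after their values were seen. Symbols of model genes were left out of the widest and steadiest. Promoters are from RefSeq on GRCm38.p6. Alternatives were other thresholds, scalings (with DESeq2 1.42.0), filters, prior counts and rankings, and leaving out each library.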

Additional observations from a re-analysis of the deposited data

Results flagged for a closer look

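Of 285 values examined, 39 had 1 library whose gap to the nearest other, as a share of the whole range over the 4 libraries, was above the critical value of Dixon's test for 4 samples. For normally distributed values, chance gives such a gap in about 1 in 20 groups, and whether FPKM values are so distributed was not tested. A gene with counts in 1 library alone always shows such a gap. Nor does the rate hold for genes named because they varied most or led 1 library. Among these are Gapdh, Ogn, Sod3, Mgp, Fetub and Hsd11b1, and their values are given as a description. Since the lists and their members were chosen with earlier results known, the rate is uncertain for them too. The values were not independent of each other, since genes of the same cell type move together, and no cause was tested. PBS 1 stood apart in B and plasma cell genes, with 181.3 FPKM for Igkc, 32.37 for Ighm, 15.45 for Jchain, 11.78 for Iglc2, 11.26 for Cd79a, 6.307 for Mzb1, 2.302 for Ms4a1 and 0.9298 for Pax5. The level of their list was 6.251 log2 CPM in PBS 1 and 2.897 to 3.311 in the others. PBS 1 also had the highest Pdcd1, at 5.666 FPKM, and Vwf, at 0.288, and the lowest level of the long noncoding RNA list, at 5.396 log2 CPM.

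PBS 2 stood apart with 234.1 FPKM for Gapdh, against 3.751 to 6.122 in the other libraries, with 689.7 for Krt18, 133.3 for Slc2a1, 95.48 for Bax, 8.337 for mt-Atp8 and 1.329 for Rpl29, all high, and with 15.85 for Csf1r, which was low. Its protein-coding share, 95.92%, was the lowest, against 96.60 to 96.71% in the others.

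PBS 3 stood apart with 1497 FPKM for Mgp, 63.58 for Sod3, 62.38 for Car9, 32.9 for Ogn, 26.3 for Fetub, 16.85 for Hsd11b1, 16.49 for Rgs5 and 1.184 for Esr1. PBS 4 stood apart with 2.161 FPKM for Acta1 and the lowest level of the fat cell list, 3.311 log2 CPM, against 4.508 to 4.574 in the others.

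The remaining values are low. Kcnq1ot1 had 0.04852 FPKM in PBS 4, from 83 counts, and Prlr had 0.141 FPKM in PBS 1, from 36 counts. The others rest on 1 to 4 counts in 1 library and 0 in the other 3, which is too few to separate libraries: Eif2s3y at 0.05776, Csn2 at 0.02603, Ovol1 at 0.02072, Lep at 0.01791 and Ddx3y at 0.01156 FPKM in PBS 1, Pgr at 0.01592 in PBS 2, and Ckm at 0.01868 in PBS 4.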

How the results depend on the processing

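No paired analysis was possible because only 1 group was described and no value compares groups. With shares taken of summed FPKM in place of counts, the top 100 genes took 40.57%, protein-coding genes 86.42% and mitochondrially encoded genes 8.989%; without the mitochondrially encoded genes, the top 100 took 22.47%. With no filter beyond 1 count, 11347 genes had a coefficient of variation above 0.5, since genes with few counts then enter, and the median absolute log2 difference was 0.3193. Leaving out 1 library gave 22 to 69 such genes, with 34 without PBS 1 and 22 without PBS 3. Ranked among all genes, the median of the carcinoma list stood at percentile 80.28, of neutrophils at 95.6, of macrophages at 98.38, of T cells at 81.6 and of fibroblasts at 90.7. Ranked among protein-coding genes at 1 FPKM or more, they stood at 10.24, 79.61, 92.82, 14.89 and 56.28, and ranked by counts at 50.65, 77.02, 94.63, 52.27 and 80.89. Of these lists, macrophages kept the first place and neutrophils were above T cells under each of these rankings. Neutrophils did not keep the second place: ranked by counts, fibroblasts, at 80.89, stood above them, at 77.02. The T cell positions rest on protein-coding members alone, without the receptor constant genes. On the log2(FPKM + 1) scale 7 lists ranged over more than 1 in place of 12. Leaving out a library gave 12048 to 12135 genes detected, 24.2 to 26.06% for the top 100, 96.38 to 96.65% protein-coding, 4.338 to 5.142% mitochondrial, 0.2274 to 0.2703 for the median difference and 8 to 11 lists. Of the 20 highest genes, 20 were shared by TPM and 18 to 19 when a library was left out. RLE, upper quartile and no factors gave 58 to 61 genes with a coefficient above 0.5, and DESeq2 75. Genes under 10 counts in a library are limited by depth.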
